A study of Mus musculus with 6 samples.

Results

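Mitochondrial carriers are the membrane proteins that move metabolites, nucleotides, cofactors and ions into and out of mitochondria. The genes described here are the rows of the deposited matrix whose symbol starts with Slc25a, together with Ucp2, Mpc1, Mpc2, Mtch1 and Mtch2. They were chosen by name and number 46 of the 12803 genes listed. GENCODE M21, an annotation of the mouse build GRCm38, holds 52 protein-coding genes with such names. The other 6 (Slc25a2, Slc25a18, Slc25a31, Slc25a34, Slc25a41 and Slc25a54) were not analysed here. Levels came from messenger RNA sequencing of cultured mouse kidney cells, with 3 libraries in each of 2 groups. The KO group is a podocyte-derived line with the genotype Myosin 1e KO. The WT group is the murine podocyte line that the labels name after Mundel, with genotype WT. Podocytes are the epithelial cells that cover the outside of the glomerular capillaries. A heterozygous genotype in the design text was not analysed here. Each genotype is 1 cell line, so genotype and other differences of the lines cannot be told apart. The sources used here do not state the culture conditions or whether the KO line is a single clone. No label says how the replicate cultures were separated, and the p-values therefore cover only the spread between these libraries, which may be technical.

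An inner-membrane carrier of this family is a bundle of membrane helices built from 3 repeats of a similar sequence, and it opens in turn to the cytosol and to the matrix. Each repeat typically carries a signature that starts with proline and holds an acidic and a basic residue at fixed places. A script translated the longest coding sequence of each member and counted this signature, written P-X-(D or E)-X-X-(K or R). It found 3 copies in 26 members, 2 copies in 9, 1 copy in 4 and none in 7. The 7 without it were Mpc1, Mpc2, Mtch1, Mtch2, Slc25a46, Slc25a51 and Slc25a53. Mpc1 and Mpc2, the subunits of the mitochondrial pyruvate carrier, have another fold and belong to a different family. Mtch1, Mtch2 and Slc25a46 are relatives of the carriers that sit in the outer membrane. Carriers are made in the cytosol and inserted into mitochondria after passage through the outer membrane, and kidney epithelia use them to supply oxidative metabolism.

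The libraries held 35447096 to 42106461 reads in the listed genes, at which 3 reads equal 0.0703 to 0.0856 counts-per-million (CPM). Myo1e, the targeted gene, was at 17.3 ± 1.4 CPM in KO and 177 ± 8.4 CPM in WT (mean ± SD, n = 3), in the direction of the labels. The podocyte markers Nphs1 and Ptpro were not among the listed genes, and Wt1 was at 0.125 ± 0.1 CPM in KO and 4.4 ± 2.0 CPM in WT. Of the 7 podocyte markers tested, 3 were higher and 3 were lower in KO. Markers of simple and tubular epithelium separated the lines. All 9 tested were higher in KO, with a summed level of 6842 to 7328 CPM in KO and 1.45 to 1.69 CPM in WT, while Umod, Slc12a1, Slc12a3, Aqp2 and Calb1 were not listed. All 7 tested mesenchymal markers were lower in KO, with sums of 14.6 to 18.3 CPM in KO and 2580 to 3011 CPM in WT. Of these, Pdgfrb, like the podocyte marker Wt1, was tested through WT only and so had to be lower. The listed proximal tubule markers summed to 17.5 to 27.7 CPM in KO and 682 to 1290 CPM in WT. Of the 4 tested, 3 were lower in KO. Aqp1 (640 ± 200 CPM) and Lrp2 (331 ± 120 CPM) made up most of the WT sum. Cubn did not pass, at 3.41 ± 0.74 CPM in KO and 3.48 ± 0.77 CPM in WT. Slc34a1, Slc5a2, Slc5a12, Slc22a6, Slc22a8 and Pck1 were not listed. The only endothelial marker listed, Flt1, was at 2.03 ± 0.27 CPM in KO and 9.97 ± 5.1 CPM in WT, and the 2 listed leukocyte markers did not pass. These shifts run alongside every result below, and their part in the carrier levels was not tested. In bulk RNA, fewer cells of a type and less RNA per cell cannot be told apart.

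All 46 members could be tested, of which 19 were higher and 13 lower in KO and 14 did not pass (limma, Benjamini-Hochberg adjusted p under 0.05 over 12616 genes). Together 69.6% of members passed, near the 68.1% of all genes tested. Higher calls made up 41.3% of members against 34.3% of all genes, and lower calls 28.3% against 33.8%. A change of at least 2-fold was reached by 5 members (10.9%), against 27.9% of all genes. The 3 libraries of a group lay entirely above or below the other 3 in 34 members (73.9%), against 73.5% of all genes. The median log2 fold change was 0.14 in the members and 0.01 in all genes, and the medians of its size without sign were 0.47 and 0.51. Ucp2, Slc25a43 and Slc25a21 passed the filter on low values through 1 group only and so had to differ. Among the other 43 members, 17 were higher and 12 lower, and 2 of these, Slc25a25 and Slc25a48, reached 2-fold. The shares of all genes restricted in this way were not computed, so these counts have no like background.

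**Figure D1:**
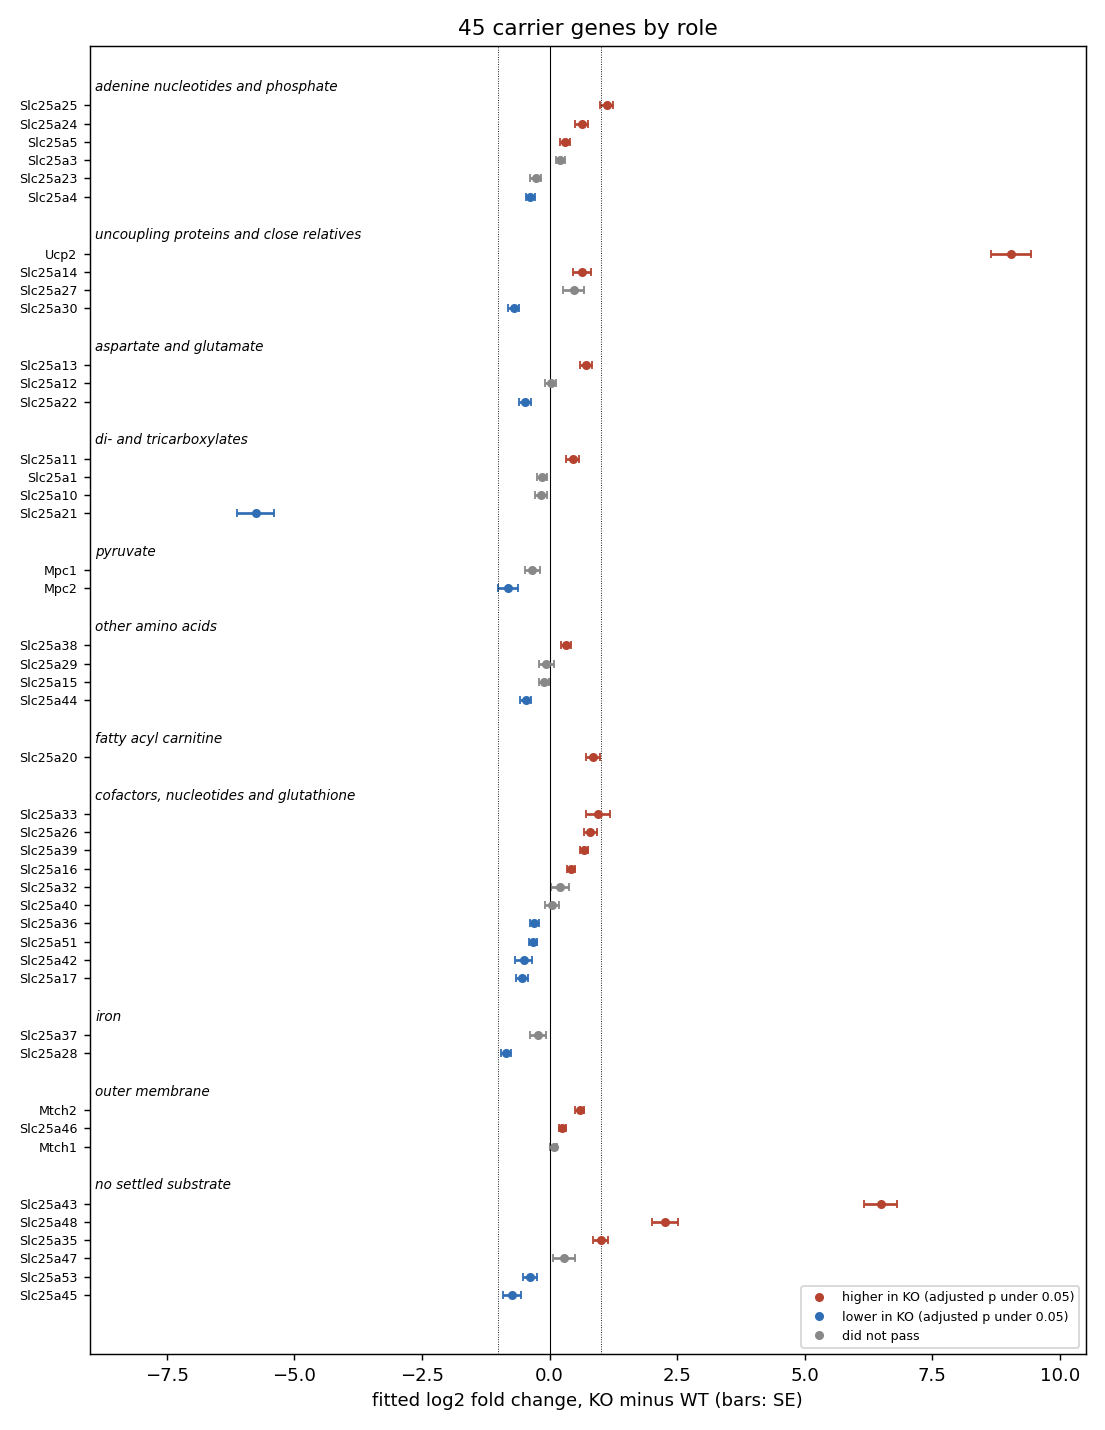
Fitted log2 fold change of 45 members, KO minus WT, with its standard error (horizontal bars), ordered by role and coloured by the call. Dotted lines mark 2-fold. Most members lie inside them, while Ucp2 (9.04), Slc25a43 (6.49) and Slc25a48 (2.26) lie far to the right and Slc25a21 (-5.76) far to the left.

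Summed over all members, the carrier transcripts took 3245, 3045 and 3336 CPM in KO, against 3217, 2925 and 2986 CPM in WT. The ranges of the lines overlapped. The phosphate carrier Slc25a3 and the adenine nucleotide translocase Slc25a4 made up 30.9% of that sum in KO and 34.4% in WT.

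Carriers that feed ATP synthesis were the most abundant members. Slc25a3 (chromosome 10, 91116574 to 91124059), which imports phosphate into the matrix, was at 559, 518 and 589 CPM in KO and 496, 464 and 479 CPM in WT. The KO libraries were all above the WT libraries, but the difference did not pass (log2 fold change 0.21, SE 0.09, limma adjusted p = 0.058). Median centring (adjusted p = 0.044) or leaving out KO replicate 2 (adjusted p = 0.0419) brought it past the threshold, and its adjusted p ranged from 0.0419 to 0.186 across the alternatives.

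Slc25a4 and Slc25a5 encode adenine nucleotide translocases, which exchange matrix ATP for cytosolic ADP. Slc25a4 is the form typical of heart and muscle and Slc25a5 that of many dividing cells. Slc25a4 (chromosome 8, 46206797 to 46211284) was at 456, 411 and 439 CPM in KO and 620, 537 and 545 CPM in WT. Every KO library was below every WT library (log2 fold change -0.38, SE 0.09, limma adjusted p = 0.006). Slc25a5 (chromosome X, 36795651 to 36798807) went the other way, with 141, 143 and 170 CPM in KO and 112, 125 and 132 CPM in WT. Its log2 fold change was 0.30 (SE 0.10, limma adjusted p = 0.028). That call was lost without KO replicate 3, WT replicate 1 or WT replicate 2 and without the intensity trend, with adjusted p from 0.0138 to 0.0839 over the alternatives. Slc25a5 also has processed pseudogenes, Gm5560 and Gm5529, with 98.3% identity over 887 aligned bases and 96.8% over 897 of its coding sequence. Reads shared with such copies may have been split or dropped, so its level is uncertain.

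Per kilobase of merged exons, Slc25a4 exceeded Slc25a3 in 3 of 3 WT libraries and in 0 of 3 KO libraries. On this scale Slc25a4 averaged 295 CPM per kb in WT and 226 in KO, and Slc25a3 averaged 247 in WT and 285 in KO. Next in order in WT was Slc25a5, at 99.4 CPM per kb. Slc25a17 (82.8), Mtch1 (77.5) and Slc25a39 (71.5) followed, and from Slc25a5 to Slc25a39 the libraries of each gene overlapped with those of the next. In KO the order after Slc25a3 and Slc25a4 was Slc25a5 (122), Slc25a39 (114) and Mtch1 (81.6), where Slc25a5 and Slc25a39 overlapped and Slc25a39 and Mtch1 did not.

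**Figure D2:**
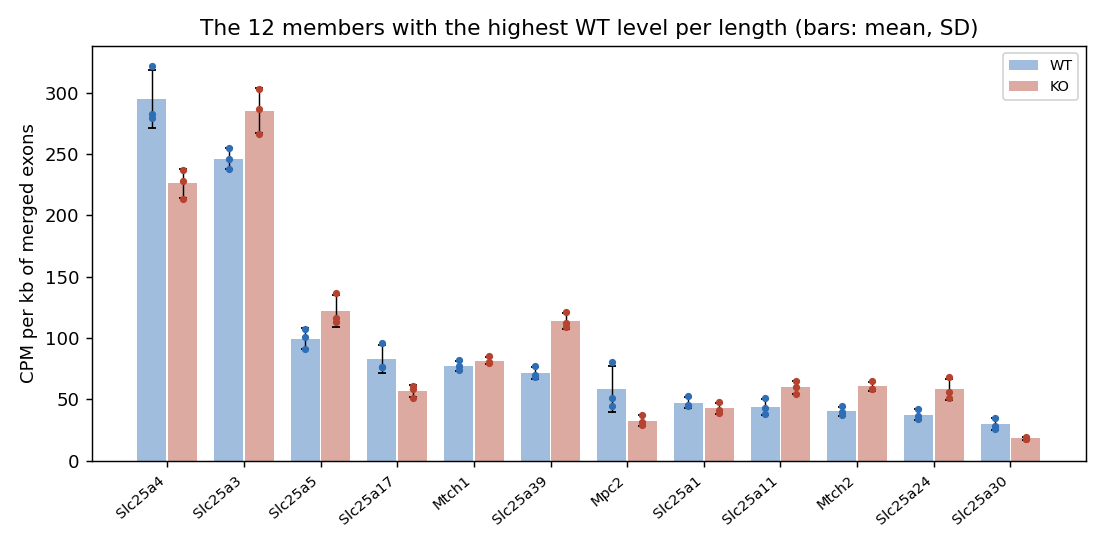
Level per kilobase of merged exons (vertical axis, CPM per kb) of the 12 members that were highest in WT. Bars are means of 3 libraries, points are libraries and error bars are SD. Slc25a4 stands above Slc25a3 in WT (295 against 247) and below it in KO (226 against 285).

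The calcium-regulated carriers of ATP-Mg and phosphate set the size of the matrix adenine nucleotide pool. Slc25a24 was at 233, 192 and 174 CPM in KO and 145, 117 and 124 CPM in WT, with no overlap (log2 fold change 0.63, SE 0.13, limma adjusted p = 0.0021). Slc25a25 (chromosome 2, 32414487 to 32451445) was at 48.8, 56.6 and 52.0 CPM in KO and 20.4, 24.2 and 28.5 CPM in WT. All KO libraries were above all WT libraries (log2 fold change 1.12, SE 0.13, limma adjusted p = 9.4e-05). Naif1, whose exons overlap it on the opposite strand, was at 11.3 ± 0.75 CPM in KO and 12 ± 1.4 CPM in WT. No source used here states the strand setting of the counting. Slc25a23, the relative of both, was at 70.4, 68.6 and 71.2 CPM in KO and 96.5, 87.5 and 71.5 CPM in WT. It did not pass (log2 fold change -0.27, SE 0.11, limma adjusted p = 0.056), although leaving out WT replicate 3 made it pass. Its adjusted p ranged from 0.00463, in that setting, to 0.163 across the alternatives.

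RefSeq lists 3 start sites for Slc25a25. The 250 bases before the most downstream of them are shown because they hold an intact cyclic AMP response element, TGACGTCA, the motif of CREB and a known feature of genes induced by cyclic AMP. The capitals mark it.
Slc25a25, chr2:32424067-32424316, minus strand: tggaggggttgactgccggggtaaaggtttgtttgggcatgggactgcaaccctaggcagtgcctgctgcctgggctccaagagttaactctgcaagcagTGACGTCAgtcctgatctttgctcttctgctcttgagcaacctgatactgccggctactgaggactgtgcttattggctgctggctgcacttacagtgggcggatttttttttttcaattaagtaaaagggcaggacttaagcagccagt
The deposited values are per gene, so it is not known which start site the reads came from. Among the 49 RefSeq windows of 300 bases that matched 37 of the 46 members (GRCm38.p6), 2 held this motif (4.1%), against 1.8% of all 32851 windows. The other was at Slc25a36, which was lower in KO.

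Among uncoupling proteins and their relatives, Ucp2 showed the widest difference of all members. Ucp2 (chromosome 7, 100493337 to 100502020, plus strand) encodes the uncoupling protein found in many tissues. In KO it was at 57.8, 44.1 and 68.6 CPM, whereas the WT libraries held 0.117, 0.129 and 0.0283 CPM. KO libraries held 6478 reads together and WT libraries held 11. The ratio was 606, with an exact Clopper-Pearson 95% interval of 339 to 1215 that covers counting error only. The fitted log2 fold change was 9.04 (SE 0.40, limma adjusted p = 2.8e-07), and its size depends on the prior added before the log. Ucp2 passed the filter on low values through KO only and so had to differ, and this p-value adds no support. Dnajb13, which overlaps Ucp2 on the opposite strand, was not among the listed genes. Of the nearest listed genes, C2cd3 upstream was lower in KO, at 44.6 ± 5.7 CPM against 54.5 ± 2.7 CPM (adjusted p = 0.037). Coa4 downstream was at 7.27 ± 1.4 CPM in KO and 5.94 ± 1.1 CPM in WT (adjusted p = 0.23).

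The relatives moved by smaller amounts and in both directions. Slc25a30 was at 63.7, 63.2 and 68.8 CPM in KO and 126, 92.4 and 103 CPM in WT, with all KO libraries lower (log2 fold change -0.70, SE 0.11, limma adjusted p = 0.00069). Slc25a14, its closest relative among the members, was at 7.31, 8.85 and 11.4 CPM in KO and 5.95, 5.54 and 5.91 CPM in WT. Here the KO libraries were all higher (log2 fold change 0.64, SE 0.18, limma adjusted p = 0.012). Slc25a27 was at 4.19 ± 0.55 CPM in KO and 3.05 ± 0.62 CPM in WT (adjusted p = 0.068, and 0.012 to 0.179 across the alternatives). It missed the threshold but passed after quantile normalization, without the intensity trend and without WT replicate 2.

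A pair of other members were read in a single line. Slc25a43 (chromosome X, 36743659 to 36777202, plus strand), a carrier whose substrate is not settled, was at 2.71, 2.08 and 2.23 CPM in KO and had 0 reads in all WT libraries. With 267 reads in KO, it was at least 91-fold higher there, taking 3 reads over the WT group as the limit. Its neighbour Slc25a5, on the same strand, was read at more than 100 CPM in all 6 libraries. The other flanking listed gene, Akap17b, was at 14.3 ± 0.77 CPM in KO and 7.64 ± 1.1 CPM in WT. Slc25a21 (chromosome 12, 56712634 to 57197472, minus strand) encodes the oxodicarboxylate carrier, which serves the breakdown of lysine and tryptophan. It had 0 reads in KO and 1.66, 1.45 and 1.10 CPM in WT. With 166 reads in WT, it was at least 53-fold lower in KO by the same limit. Part of its exons overlap Pax9 on the opposite strand, a transcription factor gene that was at 0.223 ± 0.12 CPM in KO and 1.95 ± 0.27 CPM in WT. With the strand setting not stated, Pax9 reads may be in the Slc25a21 counts of WT, which was not tested. On the other side of Slc25a21, Prps1l3 was at 29.9 ± 3.3 CPM in KO and 30.1 ± 1.7 CPM in WT (adjusted p = 0.91), and Mipol1 was higher in KO, at 15.0 ± 1.1 CPM against 9.7 ± 0.26 CPM (adjusted p = 0.0011).

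The 250 bases before the annotated start of these 3 genes are shown because their transcripts were near or at 0 in 1 line. Sequences are from RefSeq (GRCm38.p6), 5′ to 3′ on the gene's strand, and capitals mark CG dinucleotides, the sites of DNA methylation. For Slc25a21 the more upstream of 2 listed starts was used.
Ucp2, chr7:100493108-100493357, plus strand: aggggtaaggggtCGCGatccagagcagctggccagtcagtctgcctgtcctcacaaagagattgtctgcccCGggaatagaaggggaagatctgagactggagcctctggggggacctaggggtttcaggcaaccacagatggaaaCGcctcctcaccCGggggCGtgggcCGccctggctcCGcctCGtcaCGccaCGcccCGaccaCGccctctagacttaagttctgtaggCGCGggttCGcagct
Slc25a43, chrX:36743382-36743631, plus strand: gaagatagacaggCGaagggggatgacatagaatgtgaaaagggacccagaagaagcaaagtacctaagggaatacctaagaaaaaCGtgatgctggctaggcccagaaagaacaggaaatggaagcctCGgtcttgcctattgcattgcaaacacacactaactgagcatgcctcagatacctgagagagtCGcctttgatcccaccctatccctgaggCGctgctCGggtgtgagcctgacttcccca
Slc25a21, chr12:57197473-57197722, minus strand: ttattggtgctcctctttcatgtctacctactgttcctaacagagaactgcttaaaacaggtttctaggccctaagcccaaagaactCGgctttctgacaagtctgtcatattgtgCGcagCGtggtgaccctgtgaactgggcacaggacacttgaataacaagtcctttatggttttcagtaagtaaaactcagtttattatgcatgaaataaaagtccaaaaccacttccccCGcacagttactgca
The 250 bases shown hold 16 CG sites for Ucp2, 6 for Slc25a43 and 4 for Slc25a21. The whole windows of 300 bases at these starts hold 21 for Ucp2, 11 for Slc25a43 and 4 for Slc25a21. Over whole windows of 300 bases, the median number of CG sites was 18 in the members and 7 in all promoters. Motifs of factors known for nuclear genes of mitochondrial proteins were searched on both strands. The letters of GABPA, CCGGAAG, were in 8 of 49 member windows (16.3%, against 8.9% of all). NRF1, searched as GCGCANGCG, was in 2 (4.1%, against 6.2%), and the estrogen-related receptor half-site AAGGTCA was in 1 (2.0%, against 4.7%). The amino acid response motif TGATGNAA was in 0 (against 4.0%). None of the 3 windows printed for Ucp2, Slc25a43 and Slc25a21 held any of these motifs or the CREB motif.

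**Figure D3:**
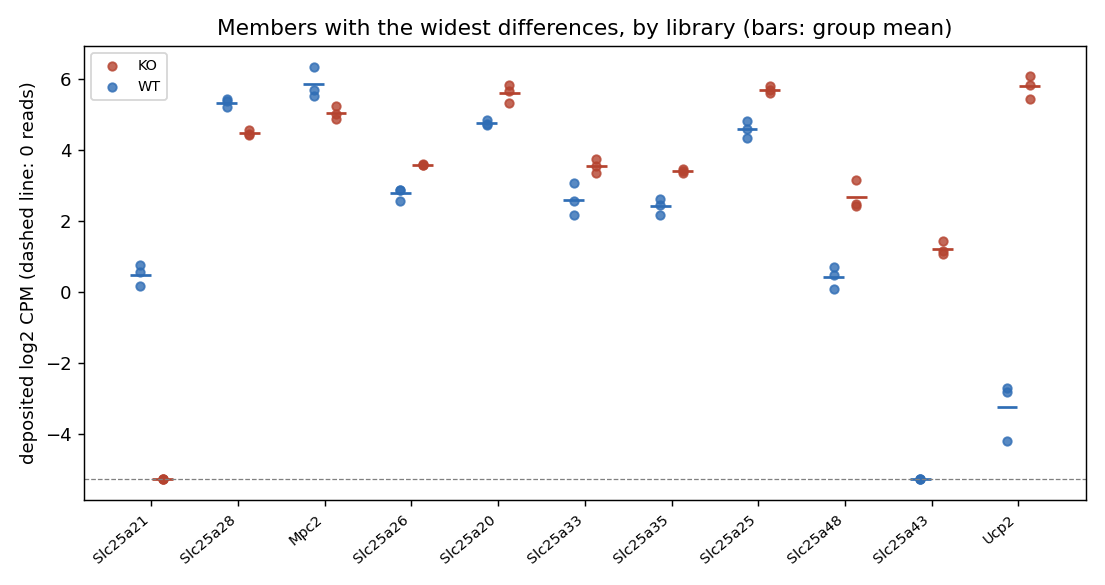
Deposited log2 CPM (vertical axis) in each library for the 11 members that passed with a log2 fold change of at least 0.8 in size. Points are libraries and bars are group means, and the dashed line is the value of 0 reads (-5.26). Slc25a21 lies on that line in all KO libraries and Slc25a43 in all WT libraries, and no gene shown has overlapping groups.

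The malate-aspartate shuttle passes reducing equivalents from the cytosol to the matrix. Of its carriers, Slc25a13 and Slc25a11 were higher in KO and Slc25a12 did not pass. Slc25a13, the aspartate-glutamate carrier citrin, was at 63.1, 69.9 and 70.6 CPM in KO and 36.2, 39.8 and 48.8 CPM in WT. All KO libraries were above all WT libraries (log2 fold change 0.72, SE 0.12, limma adjusted p = 0.00071). Its relative Slc25a12, called aralar, was at 50.3, 52.0 and 55.9 CPM in KO and 56.8, 53.3 and 46.2 CPM in WT. These groups overlapped (log2 fold change 0.02, SE 0.10, limma adjusted p = 0.86). The oxoglutarate-malate carrier Slc25a11, the other arm of the shuttle, was at 103, 93.0 and 111 CPM in KO and 87.4, 73.7 and 64.9 CPM in WT. It was higher in KO without overlap (log2 fold change 0.45, SE 0.12, limma adjusted p = 0.0095). Outside the shuttle, the glutamate carrier Slc25a22 was at 15.2, 15.1 and 17.6 CPM in KO and 21, 22.2 and 23.7 CPM in WT. All its KO libraries were lower (log2 fold change -0.48, SE 0.11, limma adjusted p = 0.0041).

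The citrate carrier Slc25a1, which supplies acetyl units for lipid synthesis, was at 71.2 ± 7.6 CPM in KO and 79.1 ± 7.3 CPM in WT, a difference that missed the threshold (adjusted p = 0.22). So did the dicarboxylate carrier Slc25a10, at 22, 21.9 and 23.3 CPM in KO and 29.8, 24.5 and 21.9 CPM in WT (adjusted p = 0.25).

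Pyruvate enters mitochondria through a complex of Mpc1 and Mpc2. Mpc2 (chromosome 1, 165460637 to 165481214) was at 32.4, 29.6 and 38.3 CPM in KO and 82.2, 52.3 and 46.1 CPM in WT. The groups did not overlap, and WT replicate 1 stood above its group (log2 fold change -0.81, SE 0.20, limma adjusted p = 0.0074). Mpc1 was at 8.19, 8.25 and 10.8 CPM in KO and 11.8, 12.3 and 10.2 CPM in WT. Its groups overlapped and it did not pass (log2 fold change -0.34, SE 0.15, limma adjusted p = 0.074). It passed once KO replicate 3 was left out, with the lowest adjusted p (0.0196) of a range reaching 0.247 across the alternatives. A pseudogene, Mpc1-ps, is identical to Mpc1 over 258 bases, so the Mpc1 count is uncertain.

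Slc25a20 imports fatty acids bound to carnitine for oxidation. It was at 51.4, 40.2 and 57.5 CPM in KO and 29.0, 26.2 and 26.9 CPM in WT, and every KO library was above every WT library (log2 fold change 0.85, SE 0.13, limma adjusted p = 0.00055). Among carriers of other amino acids, Slc25a44, which carries branched-chain amino acids, was lower in KO (37.7 ± 1.7 against 52.6 ± 7.8 CPM, adjusted p = 0.0059). The glycine carrier Slc25a38, needed for heme synthesis, was higher (17.7 ± 0.75 against 14.2 ± 0.67 CPM, adjusted p = 0.02). Leaving out KO replicate 1 ended its call, with the highest adjusted p (0.0547) of a range from 0.00578 across the alternatives. The ornithine carrier Slc25a15 was at 18.8 ± 0.75 CPM in KO and 20.3 ± 0.62 CPM in WT, and the basic amino acid carrier Slc25a29 at 4.84 ± 0.29 and 5.04 ± 0.22 CPM. Neither passed.

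Iron reaches the matrix for heme and iron-sulfur clusters through the mitoferrins. Slc25a28, the form of most tissues, was at 21.6, 22.1 and 23.9 CPM in KO and 37.1, 42.0 and 43.5 CPM in WT. The groups were far apart (log2 fold change -0.86, SE 0.10, limma adjusted p = 7.7e-05). Slc25a37, the form known from red cell precursors, was at 41.3, 41.1 and 49.2 CPM in KO and 42.4, 48.4 and 65.4 CPM in WT. These values overlapped (log2 fold change -0.23, SE 0.16, limma adjusted p = 0.23).

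Of the 11 carriers of cofactors, nucleotides and glutathione, 5 were higher, 4 lower and 2 did not pass. Among all genes tested, 34.3% were higher and 33.8% lower. Slc25a39, which imports glutathione, was at 189, 184 and 204 CPM in KO and 130, 117 and 115 CPM in WT. The libraries of each line lay close together (log2 fold change 0.68, SE 0.08, limma adjusted p = 0.00011). Its relative Slc25a40 was at 13.5, 12 and 13.8 CPM in KO and 14.1, 10.8 and 13.0 CPM in WT (log2 fold change 0.05, SE 0.13, limma adjusted p = 0.75). The groups of Slc25a40 overlapped, and a pseudogene (Gm5066) matches 96.3% of 724 of its coding bases.

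Pyrimidine nucleotides are carried by Slc25a33 and Slc25a36. Slc25a33 was at 10.2, 11.8 and 13.4 CPM in KO and 4.47, 5.95 and 8.42 CPM in WT, all KO libraries being higher (log2 fold change 0.95, SE 0.23, limma adjusted p = 0.0059). Slc25a36 went down, with 58.0, 55.4 and 65.4 CPM in KO and 69.8, 74.9 and 75.8 CPM in WT (log2 fold change -0.30, SE 0.09, limma adjusted p = 0.013). Leaving out WT replicate 2 ended this call, and the adjusted p across the alternatives ran from 0.00457 to 0.052, the value in that setting. Its pseudogene Gm13217 matches 99.6% of 544 coding bases, which makes the level of Slc25a36 uncertain.

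Other cofactor carriers also went both ways. Slc25a16, linked to coenzyme A, was at 35.6 ± 0.96 CPM in KO and 26.6 ± 0.37 CPM in WT (adjusted p = 0.0016). The coenzyme A carrier Slc25a42 was at 18.6, 15.4 and 15.0 CPM in KO and 27.3, 25.4 and 17.7 CPM in WT. It was the only called member whose groups overlapped (log2 fold change -0.51, SE 0.17, limma adjusted p = 0.03). Leaving out KO replicate 2, KO replicate 3, WT replicate 1 or WT replicate 2 ended that call (adjusted p from 0.00231 to 0.098 over the alternatives). The S-adenosylmethionine carrier Slc25a26 rose to 12 ± 0.11 from 6.91 ± 0.83 CPM (adjusted p = 0.00071). Lrig1, whose exons overlap Slc25a26 on the opposite strand, was also higher, at 67.3 ± 8.3 CPM in KO and 36.9 ± 2.9 CPM in WT. With the strand setting not stated, Lrig1 reads may be in the Slc25a26 counts, which was not tested. The NAD carrier Slc25a51 fell to 65.1 ± 2.5 from 81.4 ± 5.5 CPM (adjusted p = 0.0063), and the peroxisomal carrier Slc25a17 to 97.9 ± 8.5 from 143 ± 20 CPM (adjusted p = 0.0028). Slc25a32, which carries folate and flavin cofactors, was at 38.5 ± 7.3 CPM in KO and 33.4 ± 6.5 CPM in WT, which missed the threshold (adjusted p = 0.34).

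In the outer membrane, Mtch2 helps insert other proteins and was at 153, 153 and 170 CPM in KO and 96.8, 105 and 116 CPM in WT. All KO libraries were higher (log2 fold change 0.59, SE 0.09, limma adjusted p = 0.00046). Mtch1 was at 186, 173 and 176 CPM in KO and 179, 168 and 161 CPM in WT, with overlap (log2 fold change 0.08, SE 0.07, limma adjusted p = 0.38). Slc25a46, which takes part in mitochondrial shape, was at 87.2 ± 2.8 CPM in KO and 73.3 ± 3.6 CPM in WT (adjusted p = 0.014). Leaving out KO replicate 1 or WT replicate 2 took it above the threshold, in a range of adjusted p from 0.0116 to 0.077 across the alternatives.

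Besides Slc25a43, the carriers without a long-settled substrate included Slc25a48 (chromosome 13, 56438355 to 56474239), at 5.32, 5.65 and 8.89 CPM in KO and 1.62, 1.03 and 1.39 CPM in WT. The KO libraries were all several times above the WT libraries (log2 fold change 2.26, SE 0.26, limma adjusted p = 8.4e-05). Slc25a35 (chromosome 11, 68968131 to 68974365) was at 10.7, 10.3 and 11.1 CPM in KO and 6.16, 5.51 and 4.47 CPM in WT. Its log2 fold change was 1.00 (SE 0.15, limma adjusted p = 0.00045), just short of 2-fold before rounding. Rangrf, on the opposite strand of Slc25a35, was at 4.73 ± 0.62 CPM in KO and 3.64 ± 0.28 CPM in WT. Slc25a45 was lower in KO, at 16.7 ± 1.2 against 28.6 ± 8.0 CPM (adjusted p = 0.006). Slc25a53 was at 4.31 ± 0.42 CPM in KO and 5.59 ± 0.17 CPM in WT (adjusted p = 0.044). This call was the least steady of all, lost in 8 of 14 alternatives, with adjusted p from 0.0122 to 0.452. Slc25a47 was near 1 to 2 CPM in all libraries and did not pass (adjusted p = 0.28).

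The balance between related members was compared as a ratio, and in most pairs the ratios of the lines did not overlap. For 13 pairs, the log2 ratio of the first to the second gene was taken in each library, which removes differences of scaling between libraries. In 12 pairs the ratios of the KO and WT libraries did not overlap. The pairs among Slc25a23, Slc25a24 and Slc25a25 share genes, so their ratios are tied and are not separate results. The share for pairs of other genes was not computed. For single genes, the groups did not overlap in 73.5% of all genes tested. Each of those 12 gave p = 0.1 in an exact two-sided permutation test, the smallest value that 3 libraries against 3 can give, and 0.108 after adjustment over the 13 pairs. This permutation test can therefore not bring any of them under 0.05, and no other test of the ratios was run. The remaining pair, Slc25a24 and Slc25a25, overlapped (difference of -0.49, exact permutation p = 0.2), and its difference was -0.28 without WT replicate 1.

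The pair of Slc25a23 and Slc25a25 had log2 ratios of 0.53, 0.28 and 0.45 in KO and 2.24, 1.85 and 1.32 in WT, a difference of -1.39. Slc25a14 against Slc25a30, whose proteins share 79.7% of aligned residues, had ratios of -3.12, -2.83 and -2.59 in KO and -4.40, -4.05 and -4.11 in WT, a difference of 1.34. Slc25a33 against Slc25a36 differed by 1.25. Between the adenine nucleotide translocases Slc25a4 and Slc25a5, with 89.6% of residues shared, the ratio was 1.53 ± 0.17 in KO and 2.20 ± 0.23 in WT, a difference of -0.68. The aspartate-glutamate carriers Slc25a12 and Slc25a13, 77.0% identical, went from 0.33 ± 0.37 in WT to -0.36 ± 0.06 in KO. The ratio was below 0 in all KO libraries and in WT replicate 3, at -0.08, while the other WT libraries had 0.65 and 0.42. Its sign ignores exon length. Per kilobase of merged exons, mean Slc25a13 was above mean Slc25a12 in both lines (21.7 against 8.3 CPM per kb in KO, 13.3 against 8.21 in WT). The mitoferrins Slc25a28 and Slc25a37 differed by -0.63. Mpc1 and Mpc2 differed by 0.47, which fell to 0.24 without WT replicate 1.

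**Figure D4:**
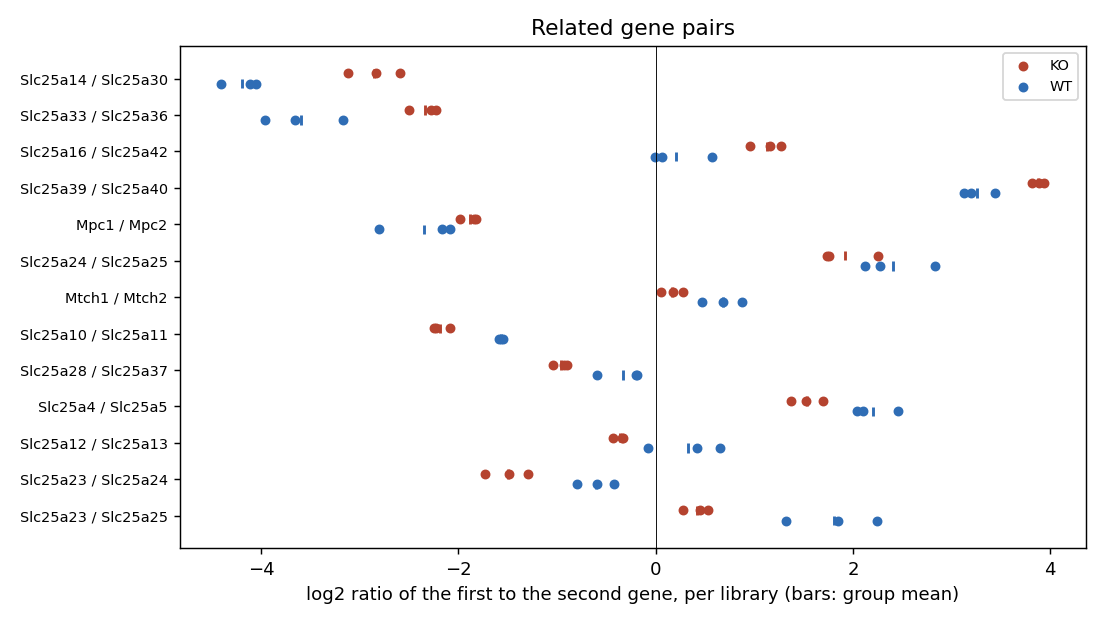
Log2 ratio of the first to the second gene (horizontal axis) of 13 related pairs, with each library as a point and group means as bars. KO and WT points do not overlap in 12 pairs, and the shifts run in both directions, from -1.39 (Slc25a23 to Slc25a25) to 1.34 (Slc25a14 to Slc25a30).

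Genes that work with the carriers were counted by the same test. Of all genes tested, 34.3% were higher and 33.8% lower in KO, which is the background for the counts of each list below. Of 16 tested genes of the import machinery for carriers, 7 were higher and 2 lower (median log2 fold change 0.19). The small chaperones of the intermembrane space Timm13 and Timm10 rose to 59.2 ± 8.7 from 34.9 ± 1.5 CPM and to 14 ± 1.2 from 8.58 ± 1.4 CPM. Agk and Timm29, subunits of the complex that inserts carriers into the inner membrane, were lower, at 5.38 ± 0.26 against 7.39 ± 0.58 CPM and 52.0 ± 1.5 against 61.6 ± 4.0 CPM.

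Among 28 tested enzymes that use or supply carrier substrates, 12 were higher and 9 lower (median 0.13). Pycr1, the last enzyme of proline synthesis in mitochondria, rose to 24.3 ± 0.68 from 7.10 ± 1.8 CPM. Ornithine aminotransferase Oat, which uses the substrate of Slc25a15, fell to 81.8 ± 6.8 from 353 ± 42 CPM. Cpt1c, a carnitine palmitoyltransferase relative known from the brain, fell to 0.463 ± 0.14 from 121 ± 5.9 CPM.

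Of 24 tested transporters outside the family, 8 were higher and 11 lower (median -0.17). Mpv17l and Ghitm rose to 15.1 ± 0.98 from 6.58 ± 0.95 CPM and to 443 ± 53 from 259 ± 21 CPM. The sideroflexins Sfxn4 and Sfxn2 fell to 1.20 ± 0.54 from 6.78 ± 1.5 CPM and to 8.19 ± 0.32 from 23.8 ± 3.9 CPM. Of 11 regulators of mitochondrial gene expression, 3 were higher and 4 lower (median -0.11). The coactivator Ppargc1a fell to 0.255 ± 0.17 from 9.08 ± 0.56 CPM and the transcription factor Gabpa to 43.5 ± 3.2 from 86.3 ± 2.3 CPM. The nuclear receptor Esrra and Tfb2m, a factor for transcription of mitochondrial DNA, rose to 73.7 ± 8.6 from 47.9 ± 6.9 CPM and to 10.0 ± 0.97 from 7.37 ± 0.35 CPM.

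The 7 listed genes encoded by mitochondrial DNA had none higher and 1 lower. Their summed level was 8149 to 8527 CPM in KO and 7718 to 8205 CPM in WT, and the ranges overlapped. The member that fell was mt-Nd6, at 5.70 ± 2.3 CPM in KO and 15.3 ± 3.4 CPM in WT (limma adjusted p = 0.0036).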

How the data were processed

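The authors deposited log2 CPM per gene and library. The build is GRCm38, and edgeR, Subread 1.6.4 with featureCounts, STAR 2.7.3a and Trimmomatic 0.39 are named, per the submitters' processing notes. The sources used here state no annotation, strand setting or gene filter. After removing the lowest value on the linear scale, 100% of values under 1000 steps were whole multiples of a smallest step (tolerance 0.01), which gave reads, a mean prior of 1 read and CPM without it.

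The test was limma 3.58.1 (R 4.3.3) with an intensity trend on the deposited log2 values, KO minus WT, over the 12616 genes above 0 log2 CPM in at least 3 of 6 libraries, with no covariates. It was tested on simulated data. Positions and merged exon lengths (basic transcripts) came from GENCODE M21, where all 46 members had 1 position. Near copies are matches of at least 95% identity over most of a coding sequence.

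Members, roles, pairs and lists were chosen with earlier results of these data known. Every member is counted, and values of 1 are not reported here. Full statistics are given for called members of at least 2-fold without overlap, for the most abundant and for paired members, and some others. From each related list, up to 2 risen and 2 fallen genes of at least 5 CPM are named. Alternatives were other filters, a prior of 1 CPM, 2 scalings, voom, no trend, a block for replicate number and leaving out each library.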

Additional observations from a re-analysis of the deposited data

How the results depend on the processing

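Over 14 alternatives, 17 to 20 members were higher and 10 to 13 lower in KO, 4 to 7 were changed at least 2-fold, and 7573 to 8743 of all genes passed (8599 with voom on the recovered reads). Of the 32 called members, 26 passed in every alternative in which they were tested. The exceptions were Slc25a5, Slc25a36, Slc25a38, Slc25a42, Slc25a46 and Slc25a53. The 26 include Ucp2, Slc25a43 and Slc25a21, which passed the filter on low values through 1 group only. The filter at log2 CPM above 1 removed Slc25a21 and Slc25a47. The sign turned in 3 members that did not pass. Slc25a12 went to -0.02 without KO replicate 3 and -0.06 without WT replicate 3, in a range of -0.06 to 0.09. Slc25a40 went to -0.06 without WT replicate 2, in a range of -0.06 to 0.14 over the libraries left out (0.16 after quantile normalization), and Slc25a29 to 0.19 after quantile normalization. The cause was not tested. With log2(CPM + 1) the log2 fold changes of Ucp2, Slc25a43 and Slc25a21 shrank to 5.71, 1.74 and -1.26, since the prior sets their size. With the replicate block, 19 members were higher and 12 lower. Same-numbered libraries correlated at 0.101, 0.081 and -0.095 in their deviations, so the numbers were not taken as pairs. The scalings moved the median of all genes to 0.03 (median centring) and 0.06 (quantile normalization). For Slc25a43 and Slc25a21, depth limits the statement to the bounds given.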
